A study of Mus musculus with 11 samples.

Results

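The BCL2 family was described in sorted CD8+ Tregs by 10 of its genes, chosen by name: Bcl2, Bcl2l1, Mcl1, Bcl2l11, Bax, Bak1, Bid, Bbc3, Bcl2a1b and Bcl2a1d, among 54532 genes in the count table. All 10 were measured with enough reads to be tested, as were 13129 genes in all. The cells were CD8+CD44+Ly49+CD122+ T cells sorted from the spleen of wild-type C57BL/6J mice, and bulk RNA sequencing gave 11 libraries. Of these, 6 came from young mice (3 male, 3 female) and 5 from middle-aged mice (2 male, 3 female), with ages of 2 to 3 months for the young mice and 10 to 12 months for the middle-aged mice, which the sample labels call old. The mice carried no further allele and received no treatment in the labels, so that age and sex are the only factors of the design. Ly49 and CD122 mark the gate of CD8+ Tregs, but the sort does not separate the Helios+ cells within it, and in bulk RNA fewer cells of a kind and less RNA per cell cannot be told apart.

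The BCL2 family sets whether the mitochondrial outer membrane stays closed or opens, the step that commits a cell to intrinsic apoptosis. Guardians such as BCL2, BCL-XL, MCL1 and A1 hold the pore-forming effectors BAX and BAK in check, and BH3-only proteins such as BIM, BID, PUMA and NOXA are the sensors that bind the guardians or engage the effectors. In CD8+ T cells, IL-15 received through CD122 is a well-known source of BCL2, and the balance of BCL2 with BIM is known to set how long memory T cells live.

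The part shared by both arms is the BH3 domain, and the coding bases around its core are shown because this helix and the groove that holds it are how the members bind each other. GENCODE M21 transcripts (GRCm38) were searched for a leucine codon, any 3 codons, a glycine or alanine codon and an aspartate codon, and 8 of the 10 genes held exactly 1 match in their longest coding sequence. Capitals mark those 18 bases (6 codons) within 45 bases, written 5′ to 3′ on the gene's strand.
Bcl2, chr1:106712572-106712616, minus strand: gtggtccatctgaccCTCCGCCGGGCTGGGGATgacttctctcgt
Bcl2l1, chr2:152829694-152829738, minus strand: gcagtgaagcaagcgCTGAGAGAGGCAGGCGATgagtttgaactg
Mcl1, chr3:95659421-95659465, plus strand: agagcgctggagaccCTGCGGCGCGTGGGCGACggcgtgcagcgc
Bcl2l11, chr2:128147135-128147179, plus strand: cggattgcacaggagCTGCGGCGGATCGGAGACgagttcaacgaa
Bax, chr7:45465994-45466038, minus strand: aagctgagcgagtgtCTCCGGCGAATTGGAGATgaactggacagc
Bak1, chr17:27022528-27022572, minus strand: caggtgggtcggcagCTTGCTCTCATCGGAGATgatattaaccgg
Bid, chr6:120897286-120897330, minus strand: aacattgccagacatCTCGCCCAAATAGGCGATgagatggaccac
Bbc3, chr7:16313758-16313802, plus strand: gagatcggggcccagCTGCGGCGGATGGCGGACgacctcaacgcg

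Bcl2a1b and Bcl2a1d, the remaining 2 genes, held no match to these letters. They are near-identical copies on chromosome 9 that code for A1, and their coding sequences of 516 bases differed at 6 positions, an identity of 98.8%. The first 60 coding bases are shown because 2 of the 6 differences (in capitals) lie there, which is the kind of position that decides to which copy a read is counted.
Bcl2a1b, chr9:89199360-89199419, plus strand: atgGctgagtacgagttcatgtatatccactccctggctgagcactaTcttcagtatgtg
Bcl2a1d, chr9:88731660-88731719, minus strand: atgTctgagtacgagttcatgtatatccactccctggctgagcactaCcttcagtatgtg
With positions counted from 1 at the start codon and Bcl2a1b written first, the differences are G4T, T48C, A94C, G312A, C381G and T490A. Of all 50-base stretches in the Bcl2a1b transcript 79.2% were also present in a transcript of another gene, and 79.5% of those of Bcl2a1d, mostly of each other, Bcl2a1a and the overlapping model Gm29094. The counts of these copies are therefore uncertain one by one, and their sum is given below. Among the other 8 genes the share was 8.51% for Bax, all of it with the overlapping model Gm45808, which had 0 counts in all libraries, and at most 0.135% for the rest.

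Total counts ranged from 6135736 to 24394532 per library, and only the young male and young female libraries numbered 1 had under 10000000. All 12 markers of the sorted cells had counts, with summed levels of 6507 to 9579 CPM (counts scaled by library size) over the libraries. The middle-aged female library numbered 2 stood apart by 10 myeloid marker genes, which summed to 2701 CPM there against 46.0 to 211 in young and 156 to 330.4 in the other middle-aged libraries. Lyz2 was the only one of the 10 with counts in every library, and the others, among them Csf1r, Itgam, S100a8 and S100a9, were at 0 in at least 1. The same library was the highest for B cell (624.5 CPM), plasma cell (206), dendritic cell (54.4) and CD4 T cell (25.7) markers. With age, 3 of 10 myeloid markers had an unadjusted edgeR p under 0.05 towards higher levels, and 3 of 9 NK cell and 4 of 7 tested erythroid and platelet markers towards lower levels. The shares over all tested genes were 2.00% higher and 0.990% lower. The NK cell markers summed to 901 to 1288 CPM in young and 465 to 1185 in middle-aged libraries, and the erythroid and platelet markers to 29.7 to 157 and 1.28 to 38.2. The paper reports NK receptor genes in the sorted Tregs themselves, with some higher and others lower in middle-aged mice. The NK cell list therefore does not tell NK cells from the sorted cells. The part of other cells in the age differences below was not tested. The libraries numbered 1 also stood apart: the slope of expression on gene length was -0.26 to -0.09 in those 4 libraries and 0.01 to 0.18 in the 7 numbered 2 or 3. The labels do not say what the number stands for, so values are given within each number below.

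In middle-aged CD8+ Tregs, 2 of the 10 genes, the guardians Bcl2 and Bcl2l1, had an unadjusted p under 0.05, both towards higher levels, but none passed the adjusted test. The edgeR quasi-likelihood model with sex as a term gave each of the 10 genes an adjusted p of 1.00. Over all tested genes, 0.0229% passed the adjusted threshold, 2.00% were higher and 0.990% lower in middle-aged cells at an unadjusted p under 0.05. For 1 of the 10 genes, Bcl2, all middle-aged values exceeded all young values, which held for 1.01% of the tested genes, and for none of the 10 were all middle-aged values lower, which held for 0.297%. The log2 fold changes of the 10 genes were positive for 4 and negative for 6, with a median of -0.07 beside 0.00 over all tested genes.

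**Figure D1:**
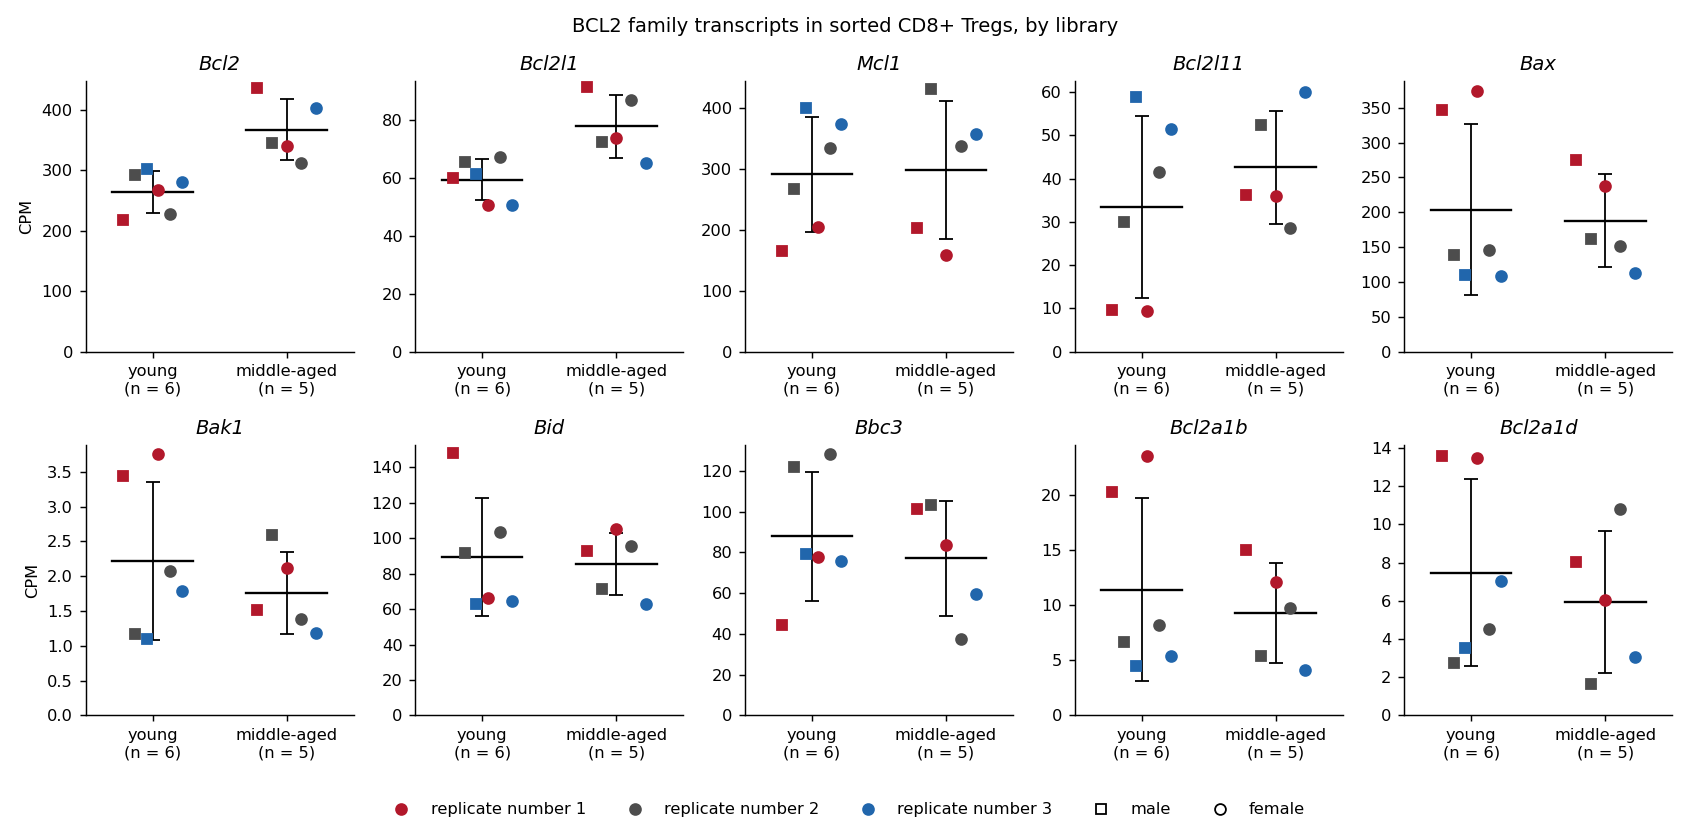
Level of the 10 BCL2 family genes in every library, in CPM (y axis from 0, one scale per gene), for 6 young and 5 middle-aged libraries, with squares for males, circles for females and colours for the replicate number. Horizontal lines are means and bars are SD. The middle-aged libraries lie above the young ones for Bcl2, and the libraries numbered 1 are lowest for Mcl1 and highest for Bax.

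Bcl2 (chr1:106538178-106714274, minus strand), the founding guardian of the family, was counted at 218, 293 and 301 CPM in the young males and 267, 228 and 280.1 in the young females, in the order of their numbers. The middle-aged males numbered 1 and 2 had 436 and 345 CPM, and the middle-aged females 339.6, 313 and 402. The lowest middle-aged library thus lay above the highest young library, and the groups did not overlap. The means were 264 ± 34.5 CPM in young (SD, n = 6) and 367 ± 50.7 in middle-aged cells (SD, n = 5). The log2 fold change was 0.48 (SE 0.18, 95% interval 0.08 to 0.88), or 1.40-fold, with an unadjusted edgeR p of 0.0227 and an adjusted p of 1.00.

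Over the 462 possible assignments of age to the libraries, the exact two-sided permutation p of the difference in mean log2 CPM of Bcl2 was 0.00216, the smallest that this design can give. The same value was reached by 80 of the 13129 genes, and its adjusted value was 0.355. Within replicate number 1 the middle-aged mean of log2 CPM was higher by 0.67, within number 2 by 0.35 and within number 3 by 0.47. The level of Bcl2, a gene of 9157 bases, in the libraries numbered 1 differed from the others by -0.05 on the log2 scale (SE 0.12). Its antisense neighbour D630008O14Rik and the 2 other overlapping models were given counts of at most 0.434% of its own each. Where exons of the antisense pair overlap, reads cannot be told apart without known strand, and exon overlap was not examined. Without the middle-aged female library numbered 2 the log2 fold change was 0.53, and with the 7 libraries numbered 2 or 3 it was 0.38 at an unadjusted edgeR p of 0.0529. The unadjusted p of Bcl2 also passed above 0.05 without the middle-aged male numbered 1 (0.0678), the young female numbered 2 (0.0582) or the middle-aged female numbered 3 (0.0540). With the replicate number as a further term, shared by both sexes, the edgeR p of Bcl2 was 0.00171 (adjusted 0.192). It was 0.00298 (adjusted 0.207) with the gene length slope as a term, and 0.00469 (adjusted 0.304) in DESeq2. In edgeR it was 0.0770 with a filter of 1 count in any library, 0.178 in males alone and 0.141 in females alone.

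Bcl2l1 (chr2:152780668-152831728, minus strand), which codes for BCL-XL, ranged from 50.7 to 67.2 CPM in young libraries with a median of 60.7. The middle-aged libraries had 91.3 and 72.3 CPM in males and 73.6, 86.8 and 65.0 in females. Only the middle-aged female numbered 3 lay within the young range, and the other 4 lay above it. The log2 fold change was 0.41 (SE 0.19, 95% interval 0.00 to 0.81), or 1.33-fold, with an unadjusted edgeR p of 0.0484 and an adjusted p of 1.00. By the exact permutation test the p was 0.0108 and its adjusted value 0.600. The middle-aged mean was higher within numbers 1, 2 and 3 by 0.57, 0.26 and 0.22 on the log2 scale. Leaving out the middle-aged female library numbered 2 gave 0.35 at an unadjusted edgeR p of 0.116. Among fits that left out 1 library, the unadjusted p of Bcl2l1 stayed under 0.05 only without the young female numbered 2 (0.0391) or the middle-aged female numbered 3 (0.0448), and it passed above 0.05 when any of the other 9 libraries was left out. With the replicate number as a further term, shared by both sexes, the edgeR p of Bcl2l1 was 0.0184 (adjusted 0.468). It was 0.161 with a filter of 1 count in any library.

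Mcl1 (chr3:95658788-95663176, plus strand), a guardian with a short-lived protein that T cells need throughout life, had the same mean in both age groups to within its spread. It was counted at 291 ± 94.3 CPM in young (SD, n = 6) and 298 ± 113 in middle-aged libraries (SD, n = 5). The log2 fold change was 0.03 with a 95% interval of -0.67 to 0.74. What separated the libraries for Mcl1 was the replicate number: the 4 libraries numbered 1 had 158 to 205 CPM and the 7 others 268 to 430.4, without overlap.

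The A1 copies were low and spread widely. Bcl2a1b ranged from 4.44 to 23.5 CPM in young and from 4.13 to 14.98 in middle-aged libraries, and Bcl2a1d from 2.72 to 13.6 and from 1.65 to 10.8. Summed, they reached 18.9 ± 12.96 CPM in young (SD, n = 6) and 15.2 ± 7.56 in middle-aged libraries (SD, n = 5), a difference of -0.22 on the log2 scale with an exact two-sided permutation p of 0.686. Bcl2a1b made up 43.5% to 76.7% of the sum. The sum was 18.2 to 37.0 CPM in the libraries numbered 1 and 7.08 to 20.6 in the others, where the highest was the middle-aged female numbered 2, the library with the high myeloid markers. A1 is also abundant in myeloid cells, and the part of those cells in this value was not tested. Without that library the difference of the sum was -0.37 (exact permutation p = 0.533).

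**Figure D2:**
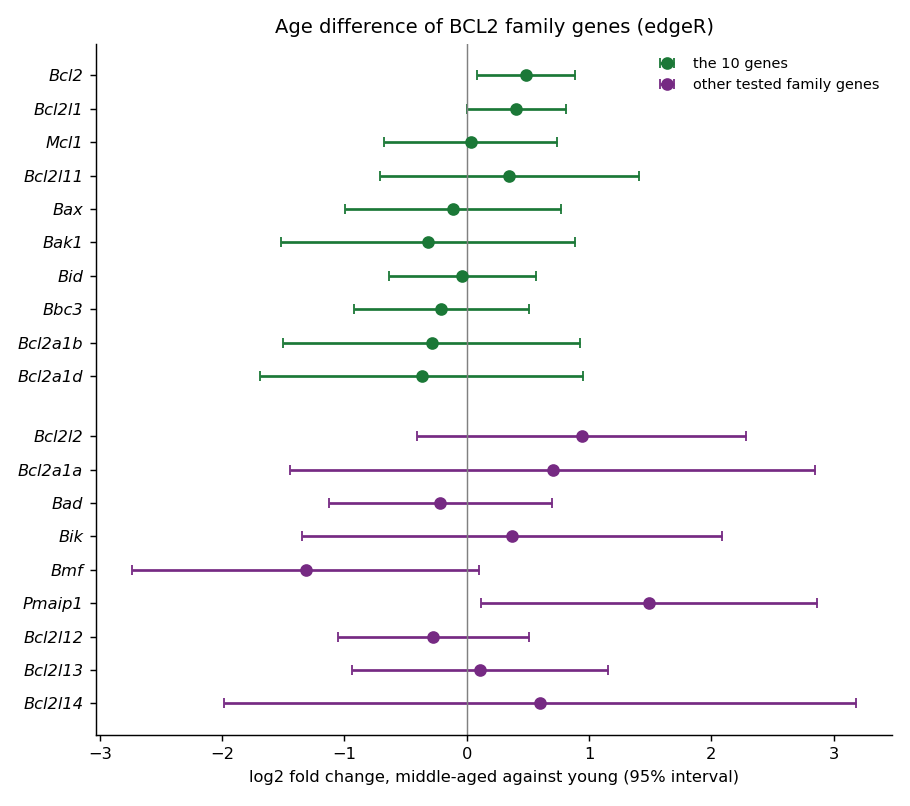
Log2 fold change of middle-aged against young libraries from edgeR (x axis) with its 95% interval, for the 10 genes and for the 9 tested genes of the family outside them. The intervals of Bcl2 and Bcl2l1, and of Pmaip1 among the others, lie above 0, and all others include 0.

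Of the effectors, Bax (chr7:45461697-45466898, minus strand) was abundant and Bak1 nearly absent at the RNA level. Bax was counted at 347, 139 and 109.5 CPM in the young males and 374, 146 and 108 in the young females. The middle-aged males had 275 and 162 CPM and the middle-aged females 238, 152 and 113. The order within each group followed the replicate number, and the 4 libraries numbered 1 (238 to 374 CPM) lay above all others (108 to 162). The age difference of Bax was -0.11 on the log2 scale in edgeR (SE 0.40, 95% interval -0.995 to 0.77) and 0.01 as a difference of mean log2 CPM. Within number 1 it was -0.49, within number 2 0.14 and within number 3 0.06, so that its direction depended on the number.

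Bak1 (chr17:27019810-27029009, minus strand) had only 19 to 52 counts per library, or 1.10 to 3.75 CPM. Ggnbp1, a gene on the opposite strand whose span overlaps it, summed to 85.8% of the Bak1 counts. Where exons of the pair overlap, reads cannot be told apart without known strand, and exon overlap was not examined. For Bak1 the log2 fold change of -0.32 had a 95% interval of -1.52 to 0.89.

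Bcl2l11 (chr2:128126038-128162547, plus strand), which codes for the BH3-only protein BIM, was uneven between libraries. The young males had 9.59, 29.9 and 59.0 CPM and the young females 9.31, 41.5 and 51.4, in the order of their numbers. The middle-aged males had 36.2 and 52.4 CPM and the middle-aged females 36.0, 28.6 and 60.04. Both young libraries numbered 1 were thus far below all the rest, with 53 and 67 counts of Bcl2l11 at the lowest depth of the series. The log2 fold change was 0.35 (SE 0.48, 95% interval -0.71 to 1.40), and the middle-aged mean was higher by 1.92 within number 1, but by 0.14 and 0.12 within numbers 2 and 3. With the 9 libraries over 10000000 counts, among which no young library is numbered 1, the log2 fold change was -0.10. Leaving out each library in turn gave 0.13 to 0.63.

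Bid (chr6:120891930-120916853, minus strand), whose protein links caspase 8 to the mitochondria, ranged from 62.8 to 148 CPM in young and from 63.0 to 105.03 in middle-aged libraries. Its log2 fold change was -0.04 (95% interval -0.63 to 0.56). Bcl2l13, on the other strand and overlapping it, held 52.1% as many counts. Bbc3 (chr7:16308393-16318205, plus strand), which codes for the p53 target PUMA, ranged from 44.5 to 128 CPM in young and from 37.5 to 103 in middle-aged libraries. The log2 fold change was -0.21 (95% interval -0.92 to 0.51), and the within-number differences were 0.64, -1.01 and -0.38. For Bid and Bbc3 the age groups overlapped widely.

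The ratio of Bcl2 to Bcl2l11 counts within each library, a measure of guardian against sensor RNA that needs no scaling between libraries, did not separate the ages. It was 5.11 to 28.7 in young libraries with a median of 7.64, and 12.0, 6.57, 9.43, 10.9 and 6.70 in the middle-aged male 1, male 2, female 1, female 2 and female 3. The mean log2 ratio was 3.31 ± 1.11 in young (SD, n = 6) and 3.15 ± 0.40 in middle-aged libraries (SD, n = 5). The difference of -0.16 had an exact two-sided permutation p of 0.755.

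The direction of the mean difference in that ratio turned with the replicate number. Within number 1 the middle-aged mean log2 ratio was 3.41 and the young mean 4.66, a difference of -1.25. Within numbers 2 and 3 the middle-aged mean was higher, by 0.21 and 0.34. The ages overlapped within number 2, where the ratio was 6.57 in the middle-aged and 9.79 in the young male. In number 3 the female was the only middle-aged library. Over the 7 libraries numbered 2 or 3 the difference was 0.33 (exact permutation p = 0.371). Over the 9 libraries with more than 10000000 counts it was 0.51 (exact permutation p = 0.111). Those 9 include the middle-aged but not the young libraries numbered 1, so that age and the replicate number cannot be fully told apart there. Leaving out the young male or the young female numbered 1 gave 0.07 and 0.14 in place of -0.16. The 2 libraries with the highest ratios, 22.7 and 28.7, were these young libraries, the shallowest of the series.

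**Figure D3:**
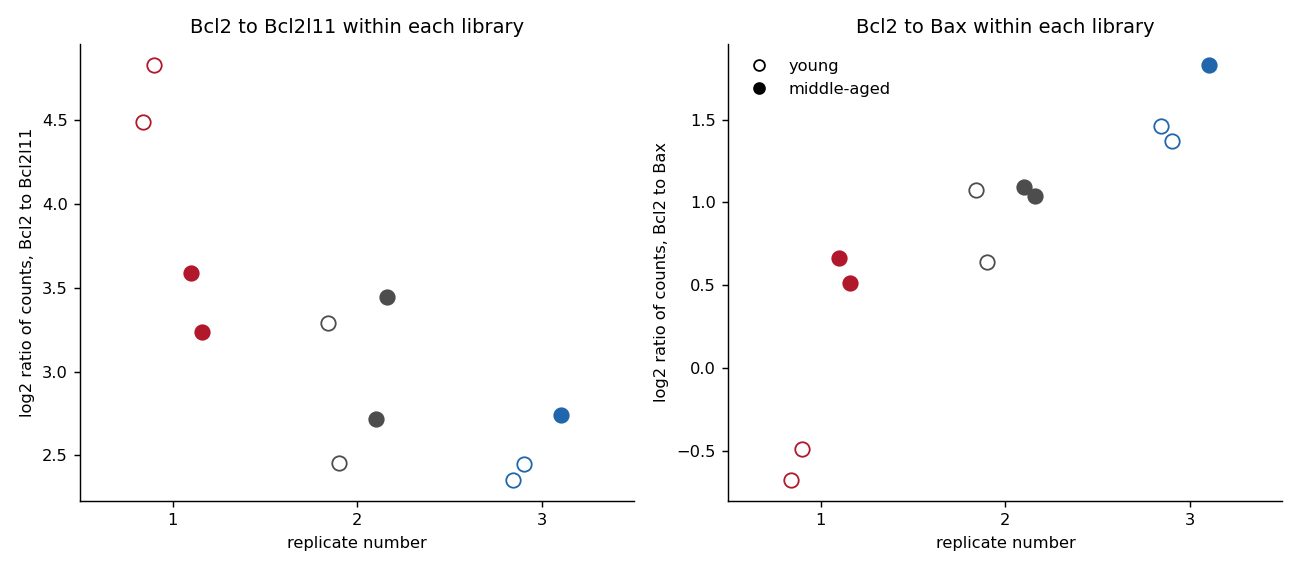
Log2 ratio of counts of Bcl2 to Bcl2l11 (left) and of Bcl2 to Bax (right) in each library, by replicate number on the x axis, with open circles for young and filled circles for middle-aged libraries. Both young libraries numbered 1 have the highest Bcl2 to Bcl2l11 and the lowest Bcl2 to Bax ratios.

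Further ratios are given as descriptions. The ratio of Bcl2 to Bax counts was 0.627 to 2.75 in young and 1.43 to 3.56 in middle-aged libraries, and the middle-aged mean was higher within each number, by 1.17, 0.21 and 0.41 on the log2 scale. Bcl2 to Bbc3 was 1.77 to 4.89 in young and 3.34 to 8.33 in middle-aged libraries, with within-number differences of 0.03, 1.35 and 0.85. Mcl1 to Bcl2l11 differed by -0.63 over all libraries and by -1.96, 0.21 and -0.24 within numbers 1, 2 and 3. Bcl2l1 to Bcl2l11 differed by -0.25 over all libraries and by -1.35, 0.12 and 0.09 within the numbers.

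The replicate number separated several of the 10 genes. In an edgeR test of the number with age and sex in the model, 4 of the 10 passed the adjusted threshold of 0.05, as did 26.3% of the tested genes. Mcl1 and Bcl2l11 were lower in the libraries numbered 1 than in the mean of numbers 2 and 3, with differences of -0.98 (SE 0.15, adjusted p = 0.00298) and -1.31 (SE 0.38, adjusted p = 0.0474) on the log2 scale. Bax and Bcl2a1b were higher, by 1.26 (SE 0.13, adjusted p = 0.000374) and 1.62 (SE 0.29, adjusted p = 0.00689). The genes that were higher are short, 1576 and 817 bases, and those that were lower have 3418 and 8029 bases. Bcl2, at 9157 bases, differed by -0.05 and Bbc3, at 2124 bases, by -0.06. The part of gene length in these differences was not tested. This test was added after the libraries numbered 1 had been seen to stand apart, and the call of Bcl2l11 was lost in 8 of 11 fits that left out 1 library, while those of Mcl1, Bax and Bcl2a1b held in all 11. Without both libraries under 10000000 counts the test called 3 of the 10 genes, Mcl1, Bax and Bid, beside 24% of all tested genes. The calls of Bcl2l11 and Bcl2a1b were thus lost and Bid was gained, in a fit with no young library numbered 1. A DESeq2 likelihood ratio test of the number called the same 4 genes as edgeR, beside 39% of all tested genes.

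**Figure D4:**
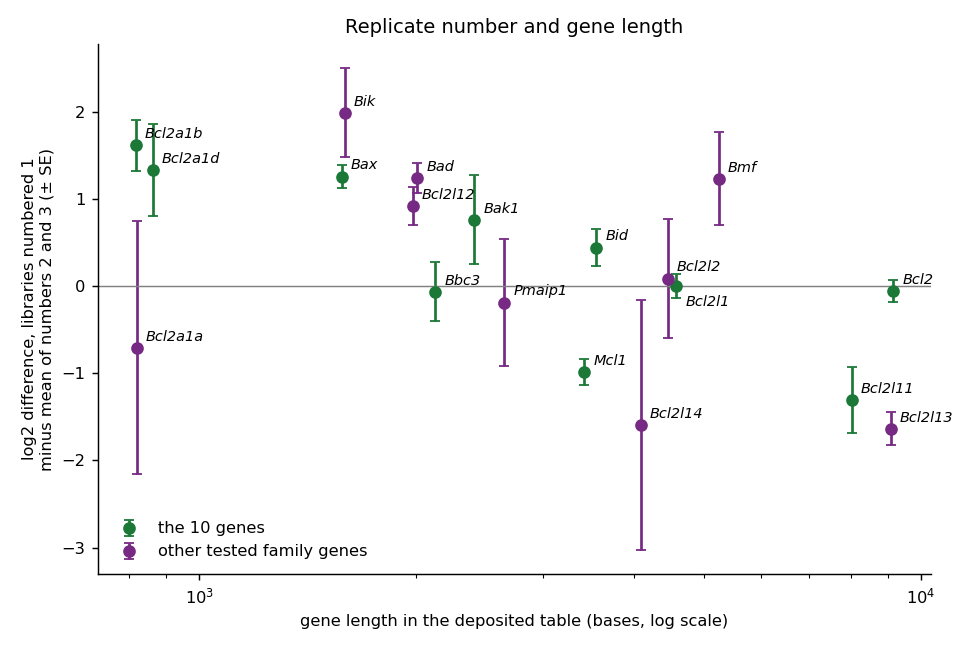
Log2 difference between the libraries numbered 1 and the mean of numbers 2 and 3 (y axis, ± SE) against gene length in bases (log x axis), for the 10 genes and the other tested genes of the family. Bax and Bcl2a1b lie above 0 at the short end and Bcl2l11 below 0 at the long end, while Bcl2 lies at -0.05.

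Sex and its interaction with age separated none of the 10 genes. For the female against male difference, 0 of 10 passed the adjusted edgeR test and 0 had an unadjusted p under 0.05, and 0.0381% of all genes passed the adjusted one. For the interaction 0 of 10 had an unadjusted p under 0.05, against 1.20% of all genes, and 0% passed the adjusted edgeR test. The most uneven of the 10 was Bbc3, with an estimate of -0.96 (SE 0.63, edgeR adjusted p = 1.00) for the female minus the male age difference.

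Compared per length, to set levels of different genes side by side, the effector Bax and the guardian Mcl1 had the highest means. The slope of expression on gene length differed between replicate numbers, so that these levels are not free of length bias. Bax had 125 ± 61.3 CPM per kilobase over the 11 libraries (SD) and Mcl1 86.0 ± 28.6. Bax exceeded Mcl1 in only 5 of 11 libraries, all those numbered 1 and the young male numbered 2. In the others Mcl1 was higher, so that their order was not fixed and followed the replicate number. Bbc3 followed at 39.1 ± 13.7, Bcl2 at 34.0 ± 7.32, Bid at 24.7 ± 7.35 and Bcl2l1 at 14.8 ± 2.81 CPM per kilobase. Bbc3 and Bcl2 stood at 41.4 and 28.9 in young and at 36.3 and 40.1 CPM per kilobase in middle-aged libraries, and this turn in their order was not tested. Bcl2a1b stood at 12.8, Bcl2a1d at 7.85, Bcl2l11 at 4.69 and Bak1 at 0.835. Mcl1 lay above Bbc3, and Bid above Bcl2l1, in all 11 libraries, whereas the neighbours Bbc3 and Bcl2 changed places in 3 of 11 and Bcl2a1d and Bcl2l11 in 4.

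Of 14 further family genes on a list, 9 were tested and none passed the adjusted edgeR test. Pmaip1, which codes for NOXA, the BH3-only partner that drives MCL1 to degradation, was the only one with an unadjusted p under 0.05. The young libraries had 8.86, 6.10 and 6.26 CPM in males and 0.139, 5.65 and 10.4 in females, and the middle-aged libraries 20.8 and 19.0 in males and 22.1, 10.7 and 12.99 in females. The lowest middle-aged value of Pmaip1 thus exceeded the highest young value, which held for 1.01% of all tested genes. The edgeR log2 fold change of Pmaip1 was 1.49 (SE 0.63, 95% interval 0.11 to 2.87, adjusted p = 1.00), with an exact permutation p of 0.00866, and the differences within numbers 1, 2 and 3 were 3.85, 1.26 and 0.68. The young female numbered 1 had 1 count of Pmaip1, so that the value within number 1 rests largely on it.

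Bmf, a BH3-only gene, had a log2 fold change of -1.32 (SE 0.65, exact permutation p = 0.0974), at 0.979 to 7.96 CPM in young and 0.836 to 2.57 in middle-aged libraries. The guardian Bcl2l2 (BCL-W) stood at 0.94 (SE 0.62) with at most 1.71 CPM. Bcl2a1a (0.70), Bik (0.37), Bcl2l13 (0.11), Bcl2l14 (0.60), Bad (-0.22) and Bcl2l12 (-0.27) had intervals that included 0. The count of Bcl2a1a is uncertain in the same way as those of the other A1 copies. Bcl2l10, Bcl2a1c, Bok and Hrk had 0 counts in all 11 libraries, and Bcl2l15 at most 5.

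The genes around the family were read from 4 lists of upstream and downstream genes, and with the further family genes 74 of 80 were tested. None passed the adjusted edgeR test, 5 had an unadjusted p under 0.05 towards higher and 2 towards lower levels, and their median log2 fold change was 0.04 beside 0.00 over all tested genes. At an unadjusted p under 0.05, 2.00% of all tested genes were higher and 0.990% lower. Among 20 genes of the mitochondrial death machinery downstream of BAX and BAK, from cytochrome c to caspases and their inhibitors, 1 had an unadjusted p under 0.05: Dffb, which codes for the caspase-activated nuclease, at -0.54 (SE 0.23, edgeR adjusted p = 1.00, exact permutation p = 0.0152). Casp9 (0.04), which codes for the initiator caspase of this arm, Apaf1 (0.00) and Xiap (0.11) had log2 fold changes near 0.

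Among 12 genes of the death receptor pathway, the extrinsic arm that meets the BCL2 family at BID, 1 had an unadjusted p under 0.05. Fasl, the Fas ligand of cytotoxic lymphocytes, had 21.4 to 99.6 CPM in young libraries with a median of 33.3, and 83.8 to 179.5 CPM in middle-aged libraries with a median of 115. The groups overlapped through 1 young library. The log2 fold change of Fasl was 1.64 (SE 0.43, edgeR adjusted p = 0.457, exact permutation p = 0.00866), and it was near 1.6 within each number (1.63, 1.68 and 1.51). Its receptor Fas stood at -0.49.

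Of 22 genes known to act on BCL2 family transcription in T cells, 21 were tested and 4 had an unadjusted p under 0.05. Of these, 3 were higher and 1 lower, beside shares of 2.00% and 0.990% of all tested genes. Id2, a transcriptional regulator that sustains effector and memory CD8+ T cells, had 186 to 264 CPM in young and 295 to 582 in middle-aged libraries, with a log2 fold change of 1.03 (SE 0.21, edgeR adjusted p = 0.228). Myb, a transcription factor of stem-like T cells that is known to act on Bcl2, had 31.4 to 46.7 CPM in young and 4.50 to 24.1 in middle-aged libraries, at -1.79 (SE 0.40, edgeR adjusted p = 0.321). Id2 and Myb did not overlap between the ages. All middle-aged values exceeded all young values for 1.01% of the tested genes and were lower for 0.297%. Id2 and Myb both had the smallest exact permutation p, 0.00216 (adjusted 0.355), a value reached by 80 of the 13129 genes. Overlap was also absent for Il15ra, which codes for the high-affinity IL-15 receptor chain, at 0.88 (SE 0.26, edgeR adjusted p = 0.643). Socs3, a feedback inhibitor of cytokine signals, stood at 1.09 (SE 0.24, edgeR adjusted p = 0.321). The IL-15 receptor chains Il2rb (0.20) and Il2rg (-0.10) and the STAT5 genes Stat5a (-0.21) and Stat5b (-0.06) had an unadjusted p above 0.05.

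None of the 12 regulators of MCL1 and BIM protein stability had an unadjusted p under 0.05, with log2 fold changes from -0.58 (Usp9x, a deubiquitinase of MCL1) to 0.31 (Mapk3, which codes for ERK1). The call of pathway genes depended on the test: DESeq2 passed 4 of the 74 genes (Fasl, Id2, Myb and Socs3) and limma with voom 5 (also Il15ra), where edgeR passed none. Of all tested genes, DESeq2 passed 0.853%, voom 1.05% and edgeR 0.0229%. Under DESeq2 and voom the count of the 10 family genes past the adjusted threshold stayed at 0.

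The genes whose log2 CPM followed Bcl2 most closely over the 11 libraries were Mapk12 (Pearson r = 0.918), Fabp3 (0.907) and Thra (0.903). For Bcl2l11 they were Pde8a (0.984), Gm10814 (0.978) and Pgam2 (0.976). These are descriptions over points that share the age groups, the replicate numbers and the depth of the libraries.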

How the data were processed

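RNA sequencing of sorted CD8+ Tregs gave 11 libraries. The authors deposited counts, whole numbers of reads per Ensembl gene without normalization, with gene coordinates of GRCm38. RNA was extracted with a Zymo kit, libraries were made with a Takara SMARTer low-input kit, and the submitters' processing notes name kallisto and mm10. Whether kallisto made the deposited counts, and with which parameters and use of strand, is not given in the sources used here. All 10 genes had the same start and end in GENCODE M21, from which the printed sequences were read. The authors deposited a gene length beside each count, which was used for values per kilobase.

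From the counts, genes with at least 10 counts in enough libraries of the smallest group (edgeR filterByExpr, total of 15 or more) were kept, scaled by TMM and tested with edgeR 4.0.16 (R 4.3.3) in a robust quasi-likelihood model of age and sex, with Benjamini-Hochberg adjustment over 13129 genes. The interaction and the replicate number were tested likewise. The standard error was taken from the F statistic, and 95% intervals from its degrees of freedom. Log2 CPM for permutation tests and correlations used a prior count of 2, ratios a pseudocount of 0.5 counts, and permutation tests enumerated all 462 assignments. Alternatives used DESeq2 1.42.0, limma 3.58.1 (voom with quality weights), other filters, scalings and libraries. Models were tested on simulated data with known answers. The data simulated for the age fits held no effect of replicate number or gene length, so they do not show how these fits fare with such effects.

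Depth was 6135736 to 24394532 counts, so that 3 counts correspond to 0.119 to 0.543 CPM, a limit that covers counting error only. The study calls each library a biologically independent replicate. No 2 libraries of a group agreed within sampling noise. The 10 genes and the gene lists were chosen with earlier results of these data known. Genes named were the 10 genes, all tested genes of the further family list, up to 5 genes per further list with the smallest unadjusted p under 0.05, and the 3 genes most correlated with Bcl2 and Bcl2l11. Other list genes were named after their values were seen, for their roles. The replicate number comparison and the fit of the 7 libraries numbered 2 or 3 were added after the data had been seen.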

Additional observations from a re-analysis of the deposited data

Results flagged for a closer look

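Of 40 age groups of single items examined (19 genes and the Bcl2 to Bcl2l11 ratio, in young and in middle-aged libraries), 1 held a library far from the others. Bmf, which codes for a BH3-only protein, was 2.57 CPM in the middle-aged male numbered 1 and 0.836 to 0.996 CPM in the other 4 middle-aged libraries. The gap was 0.908 of the whole range of the group. Chance flags about 1 in 20 such groups.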

How the results depend on the processing

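None of the 10 genes passed the adjusted age test under any of 27 alternatives, nor the interaction test under any of 15. Over those 27, the log2 fold changes of Bcl2 (0.34 to 0.57) and Bcl2l1 (0.29 to 0.48) kept their direction. The other directions depended on the fit, and where a direction turned the cause was not tested. With voom and quality weights Bax was 0.33, Bak1 0.41 and Bcl2a1b 0.093. With the gene length slope as a term Mcl1 was -0.047 and Bax 0.12. Without the 2 shallow libraries, which leaves those with over 10000000 counts, Mcl1 was -0.21, Bcl2l11 -0.10, Bax 0.57, Bak1 0.20 and Bid 0.062. In the same libraries Bcl2a1b was 0.57, Bcl2a1d 0.38, the summed A1 copies 0.37 and the log2 ratio of Bcl2 to Bcl2l11 0.51. No young library numbered 1 is left among them, so that age and the replicate number cannot be fully told apart there. In males alone Bax was 0.14, Bak1 0.15 and Bbc3 0.32, and in females alone Mcl1 was -0.084 and Bid 0.17. With numbers 2 and 3 alone Bax was 0.19, Bak1 0.16, Bcl2a1b 0.0048 and the ratio 0.33. Leaving out each library in turn gave Mcl1 -0.21 to 0.19, Bcl2l11 0.13 to 0.63, Bak1 -0.55 to -0.078, Bbc3 -0.38 to -0.017, Bax -0.31 to 0.27, Bid -0.14 to 0.14, Bcl2a1b -0.64 to 0.17, Bcl2a1d -0.79 to 0.057, the summed A1 copies -0.41 to 0.028, and the ratio -0.36 to 0.14. The count of pathway genes past the adjusted threshold was 0 in edgeR, 4 in DESeq2, 5 in voom and 2 with the gene length slope (Id2 and Socs3). Same-numbered libraries were not treated as pairs in the main fit. Deviations of same-numbered libraries of the same sex correlated at 0.0287 to 0.428 over 5 pairs. Over all 15 same-numbered pairs, across sexes too, the range was 0.0250 to 0.558. Among libraries of other groups, 9 of 11 libraries correlated best with a library of their own number. With a replicate block shared by both sexes, 1 pathway gene passed (Id2), and with a replicate block within sex none did. Bcl2 was 0.51 under both blocks and Bcl2l11 0.80 and 0.85. Permuted within numbers, the ratio was -0.23 (exact permutation p = 0.444). With the block and the length slope together Bax was 0.13 and Bak1 0.0043. Over all genes, 3 passed in the edgeR fit and 19 with the shared block, 2 with the block within sex, 45 with the length slope, 112 in DESeq2 and 138 in voom. The count was 17 with a filter of 1 count in any library, 5 with 10 counts in every library or without the sex term, 6 with over 10000000 counts, 0 in either sex alone or with block and slope together, and 1 to 4 with each library left out. At the depth of the shallowest library, 3 counts are 0.543 CPM, so that Bcl2l2, Bcl2l14 and Bcl2a1a were near the limit of detection there.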
